A study of Mus musculus with 2 samples.

Results

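The data describe 8 genes of steroid metabolism and of the response to glucocorticoids in fibro-adipogenic progenitors (FAPs), the mesenchymal cells that lie between the fibers of skeletal muscle. The genes were Hsd11b1, Hsd11b2, Akr1c14 and Akr1c18, which encode enzymes, Nr3c1, which encodes the glucocorticoid receptor, and Fkbp5, Tsc22d3 and Per1, whose transcription that receptor raises in many tissues. They were 8 of the 31053 genes in the count tables, and they were chosen with their levels in these same cells in view. Every value below is therefore a description of these cells, and none of it is a test. All 8 genes had UMIs in both libraries and passed the filter on low values in every comparison.

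FAPs were sorted from the limb muscle of 3-week-old C57BL/6 mice as live cells negative for lineage markers and Vcam1 and positive for Sca1, and measured by droplet scRNA-Seq of transcript 3′ ends. One group was Bap1WT, mice with floxed Bap1 alleles (Bap1 f/f) and no Cre, and the other was Bap1ΔMPC, which carried Prx1-Cre on the same floxed alleles. Prx1-Cre is active in the mesenchyme of the developing limb, so deletion is not limited to FAPs, and it also reaches limb bone and connective tissue. Each genotype was 1 library, the number of mice behind it is not stated, and the difference between the genotypes cannot be told apart from a difference between the libraries.

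Cortisol and corticosterone bind the glucocorticoid receptor, which moves to the nucleus and acts on target genes. In many tissues the amount of active hormone is set inside the cell: the enzyme encoded by Hsd11b1 regenerates active glucocorticoid from its inert 11-keto form, and the enzyme encoded by Hsd11b2 carries out the opposite step. Akr1c14 and Akr1c18 encode aldo-keto reductases that act on other steroids, the latter being the mouse enzyme that inactivates progesterone. In mesenchymal cells, glucocorticoids are known for their effects on adipocyte formation and on inflammatory genes.

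The library labelled Bap1WT held 4103 cells and 51015705 UMIs (unique molecular identifiers, each counted as 1 captured transcript), and that labelled Bap1ΔMPC held 4378 cells and 49540066 UMIs, with medians of 12232 and 11017.5 UMIs per cell. The deleted gene was checked first. Bap1 had 17.6 counts per 1000000 UMIs (CPM, exact Poisson 95% interval 16.5 to 18.8) in the library labelled Bap1WT and 21.6 CPM (20.4 to 23.0) in the other, so it was not lower where it was labelled as deleted. Counts from 3′ ends do not show which exons a transcript held, so directions are given by the labels alone. All intervals are at 95% and cover counting error only. The FAP marker Pdgfra had a UMI in 93.9% and 84.1% of cells and Ly6a, the gene of Sca1, in 96.5% and 96.5%. Ptprc, the gene of the leukocyte marker CD45, had none in either library, with upper limits of the interval at 0.0723 and 0.0745 CPM. Vcam1, against which the cells were sorted, had a UMI in 26.3% and 12.6% of cells, and the endothelial gene Pecam1 in 94 and 170 cells. Xist, which is expressed from the inactive X chromosome of females, reached 791 and 702 CPM, although the study names males alone as the animals of its whole transcriptomic analysis. The labels do not give the sex of these mice. The 2 libraries shared 5 cell barcodes.

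Cells were placed in classes by genes other than the 8. Dpp4-type cells were those with 25 or more UMIs per 10000 from Pi16, Sema3c, Anxa3 and Efemp1 together, and Cxcl14-type cells were those below 25 with 5 or more UMIs per 10000 of Cxcl14. These are ranges of a score, not cell types with a natural border. Dpp4-type cells were 1050 of the cells (25.6%) in the library labelled Bap1WT and 1251 (28.6%) in that labelled Bap1ΔMPC, and Cxcl14-type cells were 569 (13.9%) and 1020 (23.3%). Scores of 20 to 30, near the limit of 25, were found in 210 and 337 cells, and Cxcl14 values of 4 to 6 in 156 and 147 cells. Dpp4, which took no part in the score, had 298 CPM in Dpp4-type and 28.1 CPM in Cxcl14-type cells of the library labelled Bap1WT, and 268 and 9.59 CPM in those of the other. Within Dpp4-type cells the median score was 59.7 in the first library and 49.1 in the second, and within Cxcl14-type cells the median of Cxcl14 was 11.7 and 19.0 UMIs per 10000, so the classes did not hold the same mix of cells in the 2 libraries.

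Every ratio past 3-fold between the libraries, over all cells or in either class, belonged to Hsd11b2, Akr1c14 or Akr1c18, while Nr3c1, Fkbp5, Tsc22d3 and Per1 differed by less than 2-fold in each. A gene was counted as past 3-fold when its CPM differed by more than that fold, with an average of over 0.01 UMIs per 10000 per cell and 20 or more UMIs. Over all cells, 1 of the 8 genes was past 3-fold higher in the library labelled Bap1ΔMPC (Hsd11b2), where 1.84% of 12380 genes were, and 1 was past 3-fold lower (Akr1c18), where 1.28% were. Among Dpp4-type cells none was higher, where 1.64% of 12066 genes were, and 2 were lower (Akr1c14 and Akr1c18), where 1.38% were. Among Cxcl14-type cells 2 were higher (Hsd11b2 and Akr1c14), where 3.12% of 12067 genes were, and none was lower, where 1.72% were. Just inside the 3-fold limit lay Akr1c14 in Cxcl14-type cells at 3.17-fold and just outside it lay Hsd11b1 there at 2.83-fold. Nothing is read from these counts, since the genes were chosen on the same ratios.

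**Figure D1:**
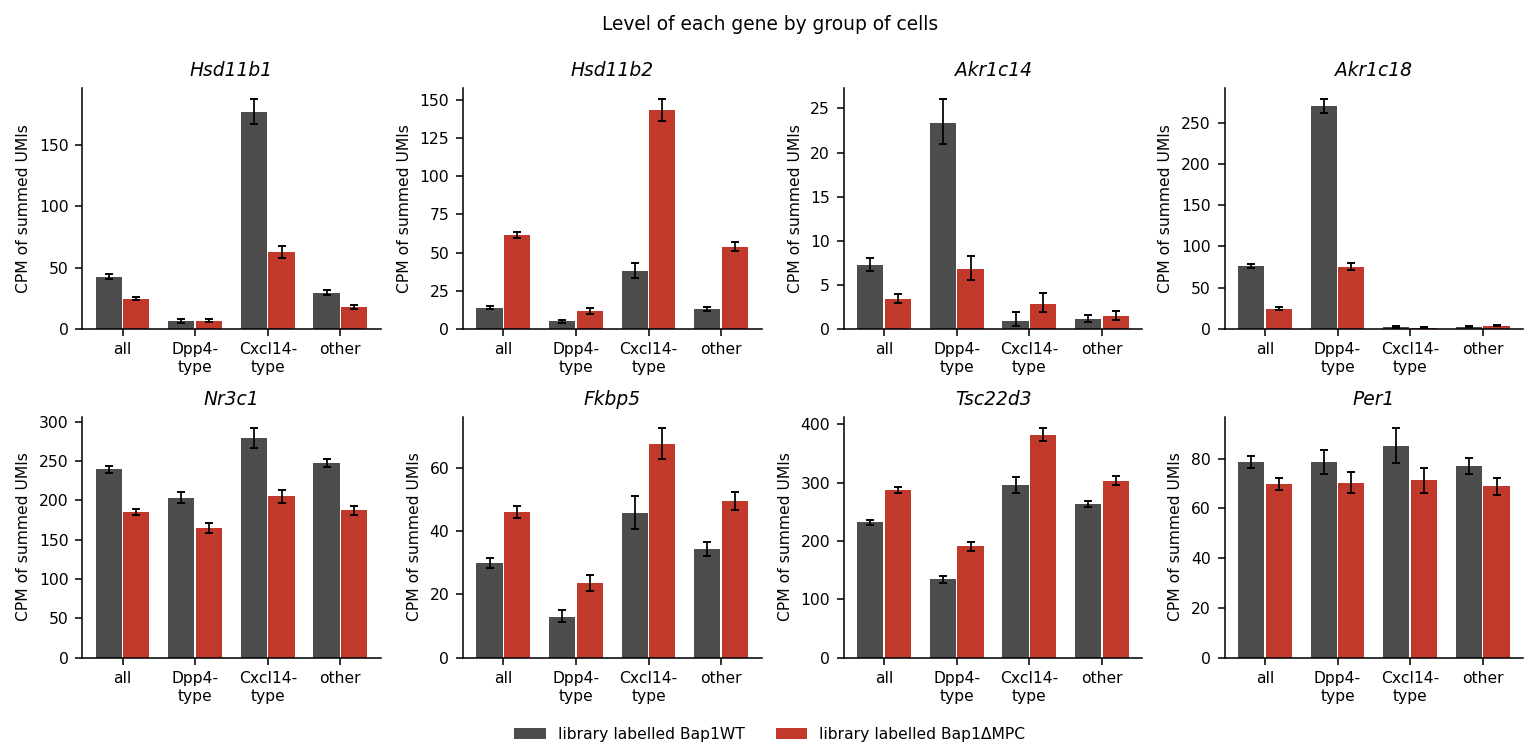
Level of each of the 8 genes as CPM of summed UMIs (vertical axes start at 0 and differ between panels) over all cells, Dpp4-type cells, Cxcl14-type cells and the other cells of each library. Bars are single libraries and error bars are exact Poisson 95% intervals: Hsd11b1 was at 177 and 62.5 CPM and Hsd11b2 at 38.0 and 143 CPM in Cxcl14-type cells, and Akr1c18 was at 270 and 75.2 CPM in Dpp4-type cells.

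Hsd11b1 (chr1:193221634-193264075, GRCm38) had its highest level in Cxcl14-type cells, and it was lower there and in the cells of neither class in the library labelled Bap1ΔMPC. Its level in those cells was 177 CPM (interval 167 to 187, from 1187 UMIs) in the library labelled Bap1WT and 62.5 CPM (58.0 to 67.3, from 704 UMIs) in that labelled Bap1ΔMPC, which was 2.83-fold lower (2.58 to 3.11). Dpp4-type cells had 6.38 and 6.57 CPM, and the intervals of those levels overlapped, but with a Dpp4 limit of 15 the log2 ratio there was -0.87. The remaining cells, in neither class, held 29.7 CPM (27.8 to 31.7) and 17.6 CPM (16.0 to 19.4), and the all-cell level was 42.6 CPM in the first library and 24.5 CPM in the second.

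Fewer Cxcl14-type cells had an Hsd11b1 UMI in the library labelled Bap1ΔMPC, and those that did had fewer. The share was 56.6% of 569 cells (exact Clopper-Pearson interval 52.4% to 60.7%) against 28.7% of 1020 (26.0% to 31.6%). With each cell thinned to 5000 UMIs, which left out 120 and 210 shallower cells of the libraries, the shares were 41.1% and 19.1%. Cells with a UMI held 3.69 and 2.40 UMIs of the gene on average. Dpp4-type cells, at medians of 13635 and 11661 UMIs per cell against 11606 and 10713.5 in Cxcl14-type cells, had a UMI in 5.71% and 5.12% of cells. No cell type that should lack the gene was among the sorted cells, so the share that free RNA gives could be limited to those values but not measured.

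Hsd11b2 (chr8:105518755-105523988, GRCm38) was higher in the library labelled Bap1ΔMPC in each class. It had 38.0 CPM (33.5 to 43.0, from 255 UMIs) and 143 CPM (136 to 150, from 1613 UMIs) in Cxcl14-type cells, 3.77-fold higher (3.30 to 4.31). In Dpp4-type cells it was at 4.82 and 11.6 CPM, a 2.42-fold difference (1.82 to 3.25) that did not reach 3-fold. The cells of neither class had 12.7 and 53.7 CPM. All cells together had 13.8 CPM in the library labelled Bap1WT and 61.5 CPM in that labelled Bap1ΔMPC, 4.44-fold more (4.09 to 4.83), and 172 of 12380 genes (1.39%) had as large a ratio in either direction.

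Both the number of Hsd11b2 cells and the UMIs in each were higher in the library labelled Bap1ΔMPC. A UMI of the gene was found in 27.2% (23.6% to 31.1%) and 47.0% (43.9% to 50.1%) of Cxcl14-type cells, and after thinning to 5000 UMIs in 17.0% and 33.2%. Cells with a UMI averaged 1.65 and 3.37 UMIs, and the most in any cell of that class was 6 in the first library and 23 in the second. In Dpp4-type cells the unthinned shares were 5.71% and 10.1%, and thinned 2.26% and 4.83%.

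The libraries differed in how much Cxcl14 their Cxcl14-type cells had, so both genes were also read at matched levels of Cxcl14 among cells below the Dpp4 limit. In cells with no Cxcl14 UMI, Hsd11b1 had 19.6 and 15.3 CPM, and at 20 or more UMIs per 10000 it had 274 and 91.5 CPM. The gene was lower in the library labelled Bap1ΔMPC in each of the bins, although in both libraries its highest level was in the highest bin. Hsd11b2 went from 9.45 to 54.5 CPM between those bins in the library labelled Bap1WT and from 40.3 to 172 CPM in the other. The cells of the second library with no Cxcl14 UMI had 40.3 CPM (37.2 to 43.7). Cells of the first with 10 to 20 per 10000 had 35.4 CPM (28.4 to 43.6), and these intervals overlapped.

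**Figure D2:**
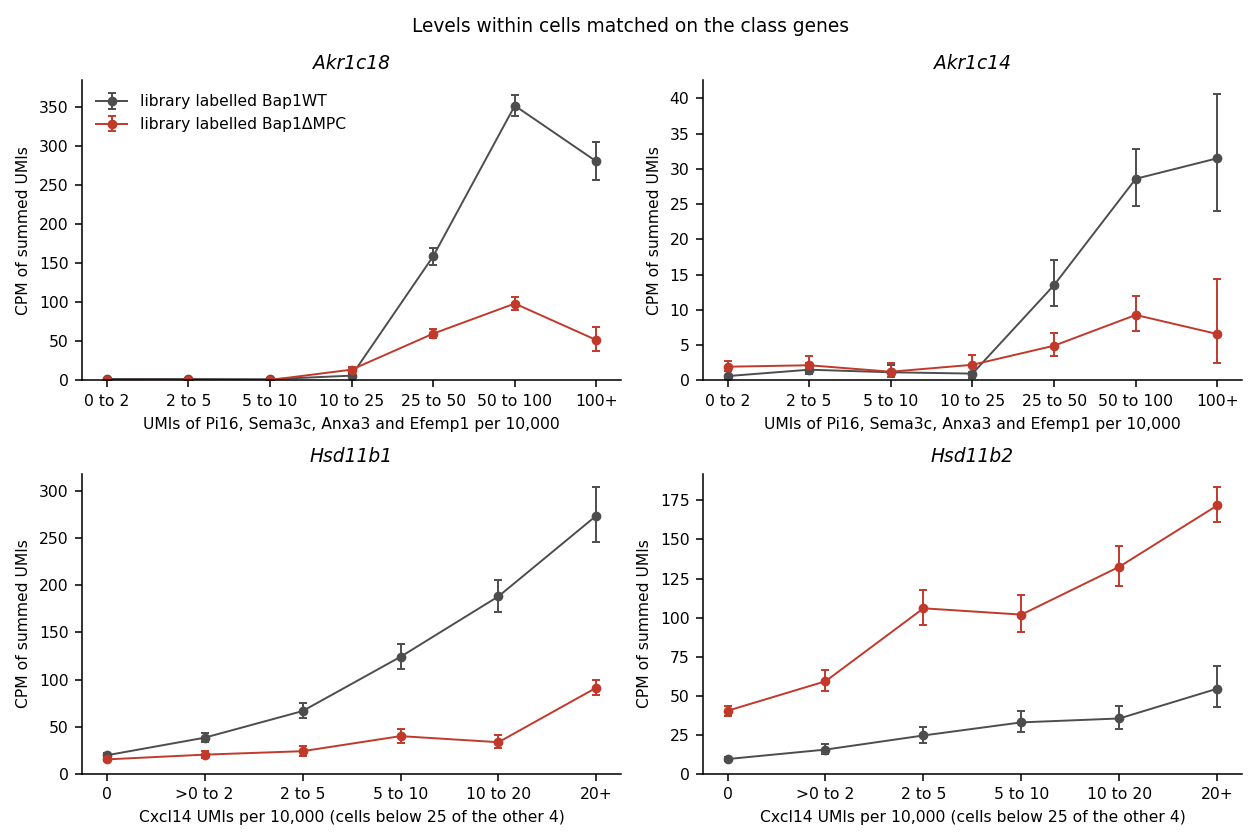
CPM of summed UMIs of Akr1c18 and Akr1c14 in bins of the summed UMIs of Pi16, Sema3c, Anxa3 and Efemp1 per 10,000, and of Hsd11b1 and Hsd11b2 in bins of Cxcl14 UMIs per 10,000 among cells below 25 of those 4 genes. Points are single libraries with exact Poisson 95% intervals: in the highest Cxcl14 bin Hsd11b1 was at 274 and 91.5 CPM and Hsd11b2 at 54.5 and 172 CPM.

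The balance between the pair of 11β-hydroxysteroid dehydrogenase genes was turned in the library labelled Bap1ΔMPC. Of all UMIs of either gene in Cxcl14-type cells, Hsd11b2 held 17.7% (15.7% to 19.8%) in the library labelled Bap1WT and 69.6% (67.7% to 71.5%) in that labelled Bap1ΔMPC. It held 43.0% and 63.9% in Dpp4-type cells, and 29.9% and 75.3% in the cells of neither class. These shares compare 3′ counts of 2 different genes, so the change between the libraries can be read, but neither share gives the ratio of the enzymes.

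Single cells showed the same order. At 5000 UMIs per cell, 189 of 559 Cxcl14-type cells (33.8%) of the library labelled Bap1WT held Hsd11b1 without Hsd11b2, 54 (9.66%) held Hsd11b2 alone and 41 (7.33%) held both. In the library labelled Bap1ΔMPC, 127 of 977 (13.0%) held Hsd11b1 alone, 264 (27.0%) Hsd11b2 alone and 60 (6.14%) both. Cells with neither gene were 49.2% and 53.8%. Over all cells at that depth the 2 genes met in 61 cells where 30.5 would hold both if the genes were independent, and in 89 cells where 62.3 would. These numbers mix the classes, and both genes had their highest level in Cxcl14-type cells. The excess is thus not read as a link between the genes in single cells. Their meeting within that class was not tested.

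**Figure D3:**
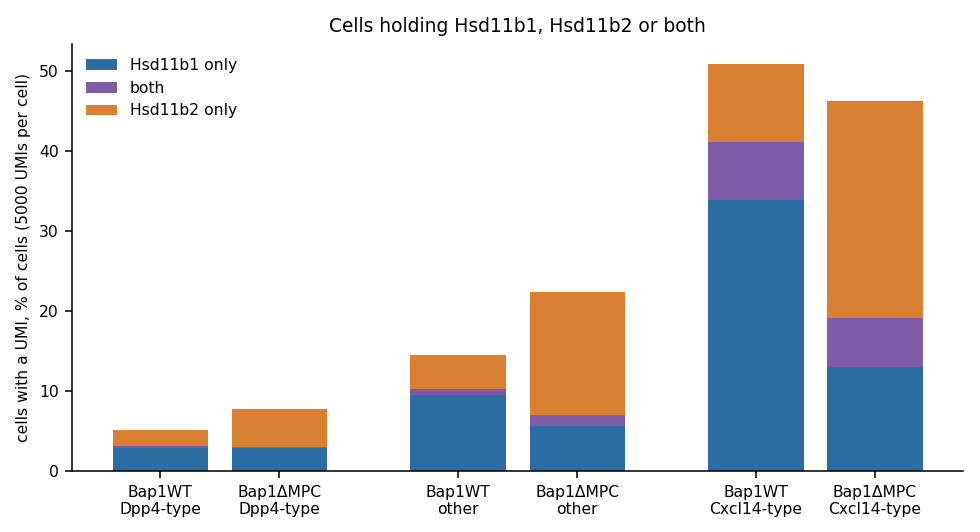
Share of cells (%, each cell thinned to 5000 UMIs) with a UMI of Hsd11b1 only, of both genes or of Hsd11b2 only, by class and library. In Cxcl14-type cells Hsd11b1 alone was found in 33.8% and 13.0% of cells and Hsd11b2 alone in 9.66% and 27.0%.

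Spon1, Angpt4 and Cldn2 were read in cells with and without an Hsd11b2 UMI. They were chosen as genes of Hsd11b2 cells with earlier results of these data known. Their higher levels in such cells are therefore a description and not an independent finding. Spon1, which encodes an extracellular matrix protein, had 300 CPM in the 1153 cells with an Hsd11b2 UMI of the library labelled Bap1ΔMPC and 89.9 CPM in the 3225 cells without. The gene had 32.1 and 20.7 CPM in the 470 and 3633 such cells of the library labelled Bap1WT. Angpt4, an angiopoietin, had 30.8 and 4.48 CPM with and without in the library labelled Bap1ΔMPC, and 8.97 and 4.69 CPM in the other. Cldn2, a tight junction claudin, had 8.17 and 1.39 CPM in the library labelled Bap1ΔMPC, where it had 111 and 50 UMIs, and 1.16 and 0.400 CPM in the other, where it had 7 and 18. Cells with an Hsd11b2 UMI also had more Cxcl14, at 1232 against 485 CPM in the library labelled Bap1ΔMPC and 538 against 191 CPM in the other, and the part of that class in these differences was not tested.

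Markers of other cell types differed between the libraries beside the Hsd11b2 result, in both directions. In Cxcl14-type cells the 9 adipocyte markers summed to 11.9 and 123 CPM, with Cidec at 0 in both libraries. The 6 Schwann markers summed to 52.5 and 147 CPM, the 6 tendon markers to 42.5 and 93.5 CPM, and the 9 immune markers to 6.56 and 21.1 CPM with Ptprc, Adgre1, Cd52 and Cd3e at 0. The 6 cycling markers summed to 26.4 and 55.3 CPM. Some sums were lower in the library labelled Bap1ΔMPC. The 6 FAP markers summed to 72997 and 43665 CPM, and the 6 myofiber markers to 94.4 and 36.4 CPM. The 6 muscle stem cell markers summed to 78.0 and 50.3 CPM, and the 6 mural markers to 104.6 and 78.1 CPM. The lower FAP sum did not hold for each of its genes: Pdgfra had 442 and 437 CPM and Ly6a 904 and 1325 CPM. The 7 endothelial markers summed to 56.7 and 56.5 CPM, and a level sum does not show the direction of each gene. The endothelial gene Pecam1 had 11 and 116 UMIs in these cells (1.64 and 10.3 CPM). With the 6 and 90 cells that held a UMI of Adipoq, Plin1 or Cidec left out, Hsd11b2 and Akr1c14 were still the genes past 3-fold in Cxcl14-type cells. The part of the other markers in the result was not tested.

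Akr1c18 (chr13:4132615-4150654) and Akr1c14 (chr13:4049011-4090688, both GRCm38) were genes of Dpp4-type cells, and both were lower there in the library labelled Bap1ΔMPC. Akr1c18 had 270 CPM (261 to 279, from 3810 UMIs) in Dpp4-type cells of the library labelled Bap1WT and 75.2 CPM (70.9 to 79.8, from 1111 UMIs) in that labelled Bap1ΔMPC, 3.59-fold lower (3.35 to 3.84). Akr1c14 had 23.4 CPM (20.9 to 26.0, from 330 UMIs) and 6.84 CPM (5.57 to 8.31, from 101 UMIs), 3.42-fold lower (2.73 to 4.32). The genes lie 41.9 kb apart on chromosome 13 in a cluster of similar Akr1c genes, and how reads that match several of them were counted is not given in the sources used here, so some UMIs of one could belong to another.

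Fewer Dpp4-type cells had Akr1c18 in the library labelled Bap1ΔMPC, and those that did held less. A UMI was found in 31.6% and 13.0% of Dpp4-type cells, and in 25.5% and 8.74% after thinning to 5000 UMIs. Cells with a UMI averaged 11.5 and 6.82 UMIs, with at most 67 and 41 in a cell. Cells with 10 or more UMIs per 10000 of this 1 gene were 104 of 1050 (9.90%) and 30 of 1251 (2.40%). Akr1c18 was uneven among cells. The top 52 of the Dpp4-type cells held 49.9% of its UMIs in the library labelled Bap1WT, and the top 62 held 83.2% in that labelled Bap1ΔMPC.

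The lower level was found at each range of the Dpp4-type score. At scores of 25 to 50 Akr1c18 had 159 and 59.7 CPM, at 50 to 100 it had 351 and 98.2 CPM, and at 100 or more 280 and 51.5 CPM. Akr1c14 in the same bins had 13.5 and 4.92 CPM, 28.6 and 9.29 CPM, and 31.5 and 6.58 CPM. Just below the limit, at scores of 10 to 25, the order was the opposite: Akr1c18 had 6.07 CPM from 44 UMIs in the library labelled Bap1WT and 13.7 CPM from 93 UMIs in the other. Over all cells Akr1c18 was 3.11-fold lower (2.91 to 3.31) and Akr1c14 2.14-fold lower (1.78 to 2.58), and without the 117 and 201 cells that held a UMI of Mki67 or Top2a the all-cell ratio of Akr1c18 was no longer past 3-fold.

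Outside Dpp4-type cells both genes had few UMIs. Cxcl14-type cells had 11 and 16 UMIs of Akr1c18, or 1.64 and 1.42 CPM, with intervals that overlapped. Akr1c14 had 6 UMIs there in the library labelled Bap1WT (0.895 CPM, interval 0.329 to 1.95) and 32 in the other (2.84 CPM, 1.94 to 4.01), a 3.17-fold higher level (1.31 to 9.29). That call rested on 6 and 25 cells with a UMI. It was lost at a log2 ratio of 1.52 with a Dpp4 limit of 15, 1.49 with a mean over cells, 1.30 without the tenth of cells with the most early gene UMIs and 0.83 with no minimum of Cxcl14. Thinning to 5000 UMIs gave 2.65, and there and with 100 or more UMIs required the gene had too few UMIs to enter. The cells of neither class had 1.13 and 1.49 CPM.

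The 2 aldo-keto reductases were found in the same cells. At 5000 UMIs per cell they met in 62 of 3983 cells of the library labelled Bap1WT, where 7.26 would hold both if the genes were independent, and in 17 of 4168 of the other, where 1.53 would. Those 62 cells were 62.0% of the cells with Akr1c14 and 21.5% of those with Akr1c18. The numbers if independent are over all cells, whereas both genes had their highest level in Dpp4-type cells. Their meeting within that class was not tested. Across all cells the correlation of ln(1 + UMIs per 10000) was 0.584 (n = 4103) and 0.437 (n = 4378), by the mean of both libraries the highest of any gene with either of them among 10994 genes found in 2% or more of the cells of each library. The points share a library, and reads split between similar genes would also give such a correlation, which was not tested. After each other, the genes most like Akr1c18 were Tmeff1 (0.470 and 0.283), Wnt2 (0.497 and 0.206), Aldh1a3 (0.423 and 0.280) and Gap43 (0.357 and 0.338), and those most like Akr1c14 were Bmp7, Tmeff1, Efemp1 and Aldh1a3. Efemp1 is part of the score, and Aldh1a3 encodes an enzyme that makes retinoic acid.

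Because the pair moved together and Hsd11b1 moved in the other class, the start regions of these 3 genes are given, 250 bases before and 50 after the RefSeq transcript start, 5′ to 3′ on the gene's strand (RefSeq, GRCm38.p6). They are Akr1c14 at chr13:4059341-4059640 on the plus strand, Akr1c18 at chr13:4150597-4150896 on the minus strand and Hsd11b1 at chr1:193242311-193242610 on the minus strand. The windows of Akr1c14 and Hsd11b1 lie inside the GENCODE gene spans given above. They are thus not at the outermost annotated starts of these genes, which were not read. Capitals mark every match, on either strand, to one of 7 short motifs.
Akr1c14: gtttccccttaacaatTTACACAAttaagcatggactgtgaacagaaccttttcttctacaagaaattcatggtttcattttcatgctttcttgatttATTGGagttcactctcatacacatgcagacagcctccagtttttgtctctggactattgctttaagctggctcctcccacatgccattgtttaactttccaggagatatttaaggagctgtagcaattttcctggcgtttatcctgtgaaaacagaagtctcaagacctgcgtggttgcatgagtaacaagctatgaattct
Akr1c18: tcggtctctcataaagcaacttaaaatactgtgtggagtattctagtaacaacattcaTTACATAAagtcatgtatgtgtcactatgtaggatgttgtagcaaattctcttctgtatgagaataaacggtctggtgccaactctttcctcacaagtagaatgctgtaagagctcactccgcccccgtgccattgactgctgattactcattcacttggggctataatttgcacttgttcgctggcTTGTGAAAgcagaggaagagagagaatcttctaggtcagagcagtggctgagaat
Hsd11b1: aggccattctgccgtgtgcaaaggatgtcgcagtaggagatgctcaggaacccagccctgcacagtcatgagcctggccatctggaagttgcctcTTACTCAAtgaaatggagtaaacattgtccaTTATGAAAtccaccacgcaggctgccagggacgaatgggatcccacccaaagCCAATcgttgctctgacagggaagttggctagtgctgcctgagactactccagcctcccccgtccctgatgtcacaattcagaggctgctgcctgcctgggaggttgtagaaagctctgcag
The motifs were the E-box CACGTG, the CCAAT box CCAAT, the TATA box TATAAA, the glucocorticoid receptor half-site TGTTCT, its paired core ACANNNTGT, the C/EBP core TTNNGNAA and the cyclic AMP response half-site TGACG. Akr1c14 had 1 match to the C/EBP core and 1 to the CCAAT box, Akr1c18 had 2 to the C/EBP core, and Hsd11b1 had 2 to the C/EBP core and 1 to the CCAAT box. The C/EBP core was in 40.7% of 32851 promoter windows of the same length and the CCAAT box in 37.4%, so such matches were common. None of the 3 windows held these letters of the receptor half-site, which 19.0% of all windows had, or of the paired core, which 6.85% had. Windows of Fkbp5, Tsc22d3 and Per1 were scanned too, and 1 of those of Tsc22d3 held the half-site. Hsd11b2 and Nr3c1 had no window. A match is a run of letters and not a site shown to be bound.

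Nr3c1, the receptor gene, differed little between classes and was lower in the library labelled Bap1ΔMPC in each. It had 203 CPM (196 to 211) in Dpp4-type cells of the library labelled Bap1WT and 165 CPM (158 to 172) in those of the other. Cxcl14-type cells had 279 CPM (267 to 292) and 205 CPM (197 to 214), and the cells of neither class 247 and 187 CPM. Over all cells the level was 1.30-fold lower (1.26 to 1.33), and 31.1% of the 12380 genes had as large a ratio. A UMI was found in 88.9% and 81.0% of cells, and in 67.9% and 58.1% after thinning.

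Fkbp5 (chr17:28399094-28517527, GRCm38) encodes a co-chaperone that holds the glucocorticoid receptor in a state of low hormone affinity, and it is itself raised by glucocorticoids. It was higher in the library labelled Bap1ΔMPC in each class, by 1.81-fold (1.51 to 2.18) in Dpp4-type cells, from 13.0 to 23.5 CPM, and by 1.48-fold (1.29 to 1.70) in Cxcl14-type cells, from 45.7 to 67.6 CPM. A UMI was present in 14.0% and 21.1% of Dpp4-type cells and in 38.7% and 45.3% of Cxcl14-type cells, and thinned in 6.10% and 9.57% and in 22.4% and 26.6%. None of these ratios reached 3-fold, and 10.5% of genes in Dpp4-type cells and 24.1% in Cxcl14-type cells had as large a ratio.

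Tsc22d3 (chrX:140539528-140600659), also called Gilz, encodes a leucine zipper protein that carries part of the anti-inflammatory action of glucocorticoids. Its level was 134 CPM (128 to 140) in Dpp4-type cells of the library labelled Bap1WT and 190 CPM (183 to 198) in those of the other, 1.42-fold higher (1.34 to 1.51). In Cxcl14-type cells it was 296 CPM (283 to 309) and 382 CPM (370 to 393), 1.29-fold higher (1.22 to 1.36). The gene was found in most cells, with a UMI in 79.8% and 83.4% of all cells and in 58.8% and 65.0% after thinning.

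Per1 (chr11:69095217-69109960), a repressor of the circadian clock that is also a direct glucocorticoid target, was nearly flat. Dpp4-type cells had 78.6 CPM (74.0 to 83.3) in the library labelled Bap1WT and 70.4 CPM in the other, 1.12-fold lower (1.03 to 1.22), and Cxcl14-type cells had 85.0 and 71.2 CPM, 1.19-fold lower (1.07 to 1.33). More than 50% of genes had a ratio at least as large in either class. Of the 3 targets, Fkbp5 and Tsc22d3 were thus higher and Per1 lower in the library labelled Bap1ΔMPC, in both classes, while Nr3c1 was lower. These 4 directions held under each of the alternative settings tried.

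**Figure D4:**
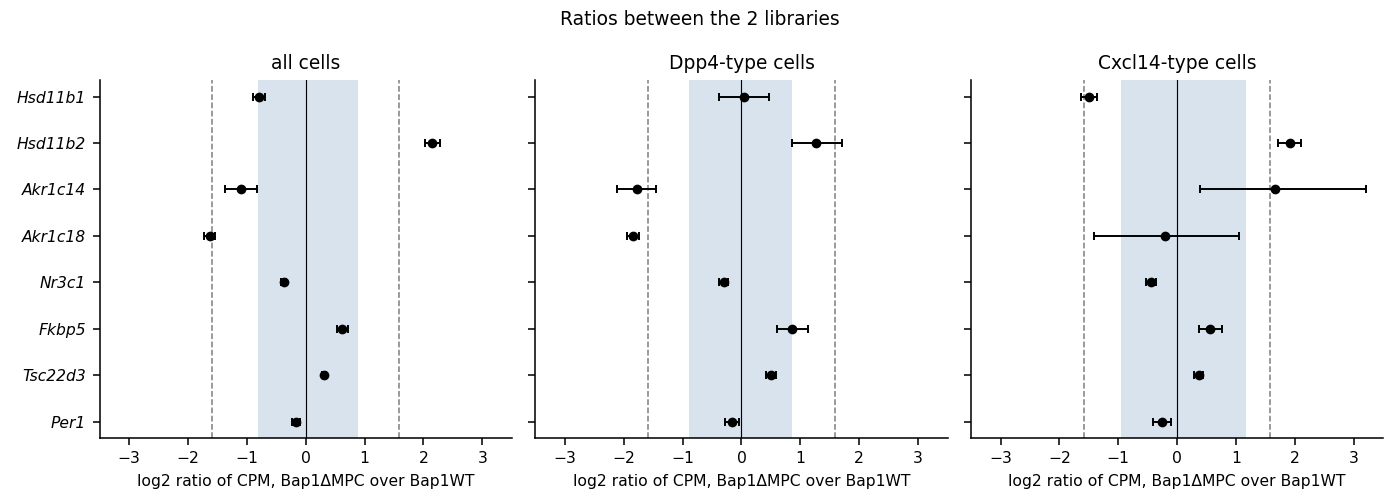
log2 ratio of CPM, library labelled Bap1ΔMPC over library labelled Bap1WT, for the 8 genes over all cells, Dpp4-type cells and Cxcl14-type cells. Points are ratios of 2 single libraries with exact 95% counting intervals, shading is the range from the 5th to the 95th percentile of all genes entered, and dashed lines are 3-fold: Akr1c14 and Akr1c18 lie at -1.77 and -1.84 in Dpp4-type cells, and Hsd11b2 lies at 1.91 in Cxcl14-type cells.

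Between the classes of 1 library the same genes stood apart. In the library labelled Bap1WT, 3 of the 8 genes were past 3-fold higher in Cxcl14-type than in Dpp4-type cells, where 5.36% of 12007 genes were, and 2 were past 3-fold lower, where 4.04% were. The higher ones were Hsd11b1 at 27.8-fold (22.4 to 34.8), Hsd11b2 at 7.90-fold (6.02 to 10.5) and Fkbp5 at 3.52-fold (2.92 to 4.25). The lower ones were Akr1c14, 26.1-fold lower (11.9 to 71.7), and Akr1c18, 164-fold lower (91.8 to 330). Of the 12007 genes, 2 had so large a ratio, Akr1c18 among them.

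In the library labelled Bap1ΔMPC, 2 genes were higher, where 6.33% of 12236 genes were, and 1 was lower, where 3.18% were. Hsd11b1 was 9.52-fold higher (7.69 to 11.9) and Hsd11b2 12.3-fold higher (10.5 to 14.5) in Cxcl14-type cells, and Akr1c18 was 52.9-fold lower (32.5 to 93.0). Akr1c14 was 2.41-fold lower (1.60 to 3.70) and Fkbp5 2.88-fold higher (2.53 to 3.28), so neither passed 3-fold there. Tsc22d3 was 2.21-fold higher in Cxcl14-type cells of the first library and 2.01-fold of the second, and Nr3c1 1.37-fold and 1.24-fold. The ratio of Per1 was 1.08-fold and 1.01-fold, with intervals that held 1 in both.

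Other genes of the pathway were taken from lists compiled by hand. Of 54 further genes of steroid synthesis and breakdown, 52 were in the tables and 25 had enough UMIs to enter in each class. None was past 3-fold in Dpp4-type cells, against 1.64% of all genes higher and 1.38% lower, and the median log2 ratio was -0.09 against 0.07 over all genes. In Cxcl14-type cells 1 was higher, against 3.12% of all genes, and none was lower, against 1.72%, with a median of -0.15 against 0.07. That gene was Cyp1b1, a cytochrome that oxidizes estradiol and other lipids, with 33 UMIs (4.92 CPM) in the library labelled Bap1WT and 204 (18.1 CPM) in the other. The enzyme genes with the most UMIs stayed within 2-fold: Fdx1, the ferredoxin that feeds electrons to mitochondrial cytochromes, had 69.1 and 54.8 CPM in Cxcl14-type cells, Por, the reductase of microsomal cytochromes, 54.0 and 76.6 CPM, Hsd17b10 77.6 and 84.9 CPM and Sult5a1 81.3 and 73.5 CPM.

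Receptors, chaperones and transporters of steroids formed a list of 26 genes, of which 24 entered. In Dpp4-type cells 1 was past 3-fold higher, against 1.64% of all genes, and in Cxcl14-type cells 2 were, against 3.12%. None was lower in either, against 1.38% and 1.72%. The genes were 2 drug efflux pumps that also export glucocorticoids. Abcb1b had 11 UMIs (1.64 CPM) and 100 UMIs (8.88 CPM) in Cxcl14-type cells. Abcb1a, which had too few UMIs for the rule that named genes and is given because it completes the count, had 2 and 74 UMIs there and 4 and 32 in Dpp4-type cells. The chaperones of the receptor were level, with Hsp90ab1 at 1582 and 1601 CPM, Hsp90aa1 at 683 and 672 CPM and Hspa8 at 2374 and 2219 CPM in Cxcl14-type cells.

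Of 60 listed glucocorticoid targets besides the members, 49 entered in Dpp4-type cells. Of these, 1 was past 3-fold higher, against 1.64% of all genes, and none was lower, against 1.38%. They lay 19 above and 30 below a log2 ratio of 0, with a median of -0.15 against 0.07 over all genes. In Cxcl14-type cells 50 entered, and 5 were past 3-fold higher (10.0% of those entered, against the 3.12% of all genes above). None was lower, against 1.72%, with 32 above and 18 below 0 and a median of 0.19 against 0.07. The list was compiled with earlier results of these cells known, and some of its genes are also early response or clock genes.

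The 5 targets that were higher in Cxcl14-type cells have different roles. Lcn2, a siderophore-binding protein of innate immunity, went from 6 UMIs to 867 (0.895 to 77.0 CPM). Rasd1, a small GTPase first found as a dexamethasone-induced gene, went from 33 to 508 UMIs (4.92 to 45.1 CPM). Il1r2, a decoy receptor for interleukin 1, had 25 and 142 UMIs, and Pdk4, the kinase that turns off pyruvate dehydrogenase, had 16 and 93. Plin4, a lipid droplet coat protein of adipocytes, had 1 and 61 UMIs and is named only to complete the count. The directions were not all the same in Dpp4-type cells. Lcn2 had 3 and 47 UMIs there, which made it the target past 3-fold, and Rasd1 had 57 and 131. Il1r2 had 62 and 24 UMIs (4.39 and 1.63 CPM) and Pdk4 99 and 65 (7.01 and 4.40 CPM), both lower in the library labelled Bap1ΔMPC.

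Targets with the most UMIs stayed within 2-fold in both classes. Dusp1, a phosphatase of MAP kinases, had 1048 and 862 CPM in Dpp4-type and 1064 and 893 CPM in Cxcl14-type cells. Cebpd had 1105 and 1071 CPM in Dpp4-type and 1266 and 1404 CPM in Cxcl14-type cells. Mt1, a metallothionein, had 2189 and 1788 CPM in the first and 2257 and 3045 CPM in the second, and Zfp36, which destabilizes cytokine transcripts, 698 and 674 CPM and 1065 and 1380 CPM. Dusp1 was thus lower in the library labelled Bap1ΔMPC in both classes, where Fkbp5 and Tsc22d3 were higher, and Mt1 and Zfp36 took opposite directions in the 2 classes.

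Per1 belongs to the clock as well as to the targets, and 23 further clock genes were read beside it. Of the 22 that entered, none was past 3-fold in Dpp4-type cells, against 1.64% of all genes higher and 1.38% lower. In Cxcl14-type cells none was higher, against 3.12%, and 1 was lower, against 1.72%. That was Nr1d1, a repressor whose transcript is among the most rhythmic of the clock, with 598 UMIs (89.2 CPM) in the library labelled Bap1WT and 298 (26.5 CPM) in the other. In Dpp4-type cells it had 69.7 and 30.7 CPM. Dbp, another strongly rhythmic gene, had 118 and 110 CPM in Dpp4-type and 148 and 99.8 CPM in Cxcl14-type cells, Rora 158 and 110 CPM and 211 and 151 CPM, Bhlhe40 148 and 131 CPM and 161 and 189 CPM, and Csnk1e 93.5 and 102 CPM and 75.2 and 67.9 CPM. The time of day of each dissection is not given in the sources used here.

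Early response and heat shock genes, which rise while tissue is dissociated and some of which are also glucocorticoid targets, were read as 28 genes. They summed to 18092 and 18287 CPM in Dpp4-type cells and to 25119 and 28042 CPM in Cxcl14-type cells. Fos had 3357 and 4892 CPM, Jun 4238 and 4066 CPM, Egr1 2920 and 2985 CPM and Junb 2523 and 2895 CPM in Cxcl14-type cells. All 28 entered in these cells, and 1 was past 3-fold lower, against 1.72% of all genes. That was Hspa1b, an inducible heat shock protein, from 402 to 113 CPM. Higher was 1, against 3.12% of all genes: Fosl1, with 3 and 20 UMIs. The part of dissociation in the levels of Per1, Fkbp5 and Tsc22d3 was not tested. As an alternative setting, the tenth of cells of each library with the most UMIs of this list (411 and 438 cells) was left out. The directions of all 3 genes stayed as above. The cut was made within each library, so it cannot show the part of a difference in dissociation between the libraries.

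**Figure D5:**
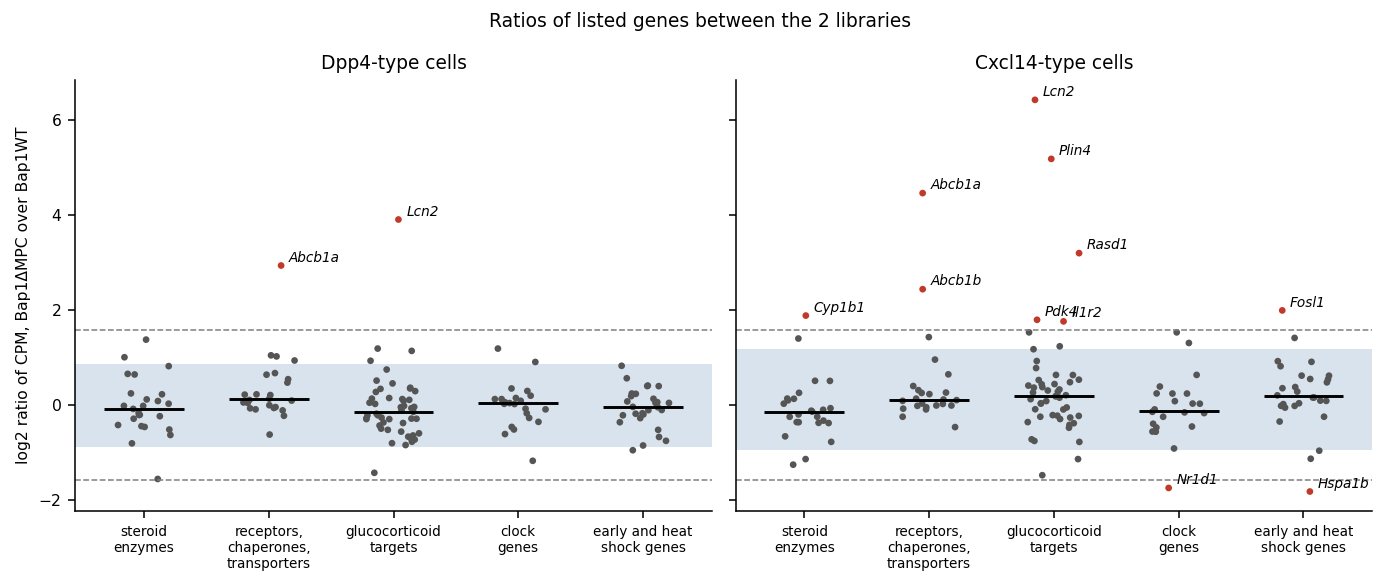
log2 ratio of CPM, library labelled Bap1ΔMPC over library labelled Bap1WT, of each listed gene with enough UMIs, in Dpp4-type and in Cxcl14-type cells. Points are genes of single libraries (red and named where past 3-fold), horizontal bars are list medians, shading is the range from the 5th to the 95th percentile of all genes entered and dashed lines are 3-fold: 5 glucocorticoid targets lie above the upper line in Cxcl14-type cells and 1 in Dpp4-type cells.

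Across single cells, Cxcl14 was among the 5 genes most like each of Hsd11b1 and Hsd11b2. Hsd11b1 was most like Cxcl14 (r = 0.485 in the library labelled Bap1WT and 0.315 in that labelled Bap1ΔMPC), Smoc2 (0.472 and 0.327), Hmcn2, Col4a1 and Col4a2, the last pair encoding the main collagen of basement membranes. Hsd11b2 was most like Lpl, the lipoprotein lipase (0.248 and 0.340), Cxcl14 (0.248 and 0.315), Igf1, Mdk and Htra1. Tsc22d3 was most like Ltbp4 (0.342 and 0.247), Mgp, Col15a1, Igfbp7 and Smoc2. The points are cells of 1 library each (n = 4103 and 4378), which differ in depth, and the values are descriptions.

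Fkbp5 was most like Mgp (0.238 and 0.157), Igfbp7, Col4a1 and Tsc22d3 (0.153 and 0.209), and Col4a2. Both targets thus had Mgp and Igfbp7 among their 5 nearest genes. Fkbp5 and Tsc22d3 met in 376 cells at 5000 UMIs per cell where 330 would hold both if independent, and in 593 cells where 505 would. These numbers are over all cells, whereas both genes had higher levels in Cxcl14-type than in Dpp4-type cells. The meeting of this pair within a class was not tested. Nr3c1 was only weakly like any gene, Lpl being the nearest (0.177 and 0.167), followed by Col4a1, Nfib, Col15a1 and Col4a2. No gene exceeded a mean of 0.0667 with Per1, which in counts this sparse is no finding.

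Among pairs of the 8 genes, the aldo-keto reductases were the most alike, and no other pair went above the 0.209 of Fkbp5 and Tsc22d3. Hsd11b1 and Hsd11b2 had r = 0.180 and 0.0720, and Hsd11b2 with Fkbp5 0.0280 and -0.0217. Cells with an Hsd11b2 UMI had 46.5 CPM of Fkbp5 and 271 CPM of Tsc22d3 in the library labelled Bap1ΔMPC, and cells without had 45.6 and 294 CPM. In the library labelled Bap1WT the values were 31.4 and 234 CPM with, and 29.7 and 231 CPM without. The intervals with and without overlapped for Fkbp5 in both libraries and for Tsc22d3 in the library labelled Bap1WT, and Tsc22d3 was lower in cells with Hsd11b2 in the other, at medians of 11587 and 10849 UMIs per cell in the library labelled Bap1ΔMPC.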

How the data were processed

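FAPs of 1 library per genotype were measured by scRNA-Seq with 10x Genomics 3′ v3.1 chemistry. Per the methods and the submitters' processing notes, reads were aligned to mm10 with Cell Ranger 3.1.0, and Seurat 3.2.1 in R 3.6.1 was used for quality control, doublet gating and removal of non-FAPs, with 5000 cells per genotype as the target. The tables the authors deposited hold UMI counts for each gene in each cell, with no normalization. Their filter thresholds and the treatment of reads that match several genes are not given in the sources used here. The deposited cells had 1501 to 4998 detected genes and less than 5% mitochondrial UMIs, and all 8481 were kept. Doublets were not called again.

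UMIs were summed over cells of a class and divided by the class total (CPM). With 1 library per genotype no test was run. Ratios carry exact intervals from a binomial split, levels exact Poisson and shares exact Clopper-Pearson intervals, at 95%. A count of 0 was set to a floor of 3 counts, and genes entered with a mean over 0.01 UMIs per 10000 and 20 or more UMIs. The 8 genes, the lists and the named genes were chosen with earlier results of these data known. The named genes were the 8, list genes past 3-fold in a class with 100 or more UMIs there, the 4 genes of each list with the most UMIs, the 5 genes most correlated with each member, the class genes, Bap1, Xist, sort genes and the genes of Hsd11b2 cells. A gene that this rule named is not reported here. Alternatives changed the scaling (TMM factors of edgeR 4.0.16, which ran no test), depth, fold, filters, class limits and cells. Ratios were also computed on simulated sums that held Poisson counting error alone, with no variation between cells, mice or libraries. At 6-fold, 198 of 200 changed genes were recovered among 12066 in Dpp4-type sums and 197 of 200 among 12067 in Cxcl14-type sums. In these sums 9 and 16 unchanged genes passed 3-fold. The 8 genes differed by less than 6-fold between the libraries, so recovery of ratios near 3-fold was not measured. Positions are those of GENCODE M21, and RefSeq windows matched 6 of the 8 genes. Scripts ran in R 4.3.3 and in Python 3.11.15 with scipy 1.17.1 and numpy 2.4.6.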

Additional observations from a re-analysis of the deposited data

Results flagged for a closer look

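Akr1c14 moved in opposite directions in the 2 classes of cells. Its log2 ratio of the library labelled Bap1ΔMPC over that labelled Bap1WT was -1.77 in Dpp4-type cells and 1.67 in Cxcl14-type cells, and the counting interval of each lay on its own side of 0. The second value rested on 6 and 32 UMIs. Each class was 1 library per genotype, and the difference between the classes was not tested.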

How the results depend on the processing

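No paired analysis was possible because the labels give only 1 library for each genotype. In all, 368 ratios of the 8 genes were recomputed under alternative settings. Of these, 318 stayed within the counting interval of the reported ratio and 50 moved outside it, and none of the ratios past 3-fold changed sign. Some could not move: the Cxcl14 limits left the 1050 and 1251 Dpp4-type cells as they were, and a Dpp4 limit of 40 left the 569 and 1020 Cxcl14-type cells. Over all cells the count of 2 genes past 3-fold became 1, Hsd11b2, with a mean over cells and without cycling cells. In Cxcl14-type cells the count of 2 became 1, also Hsd11b2, with a mean over cells, with cells thinned to 5000 UMIs, with 100 or more UMIs required, with a Dpp4 limit of 15, with no minimum of Cxcl14 and without the tenth of cells with the most early gene UMIs. Between the classes of the library labelled Bap1ΔMPC the count of 3 became 6 at over 2-fold. The count of 1 glucocorticoid target in Dpp4-type cells became 0 with cells thinned to 5000 UMIs and with 100 or more UMIs required, 4 at over 2-fold (3 higher and 1 lower) and 6 with no filter on counts (2 higher and 4 lower). In Cxcl14-type cells the 5 targets became 10 at over 2-fold (8 higher and 2 lower) and 2 with no minimum of Cxcl14. The share of all genes was not computed under the alternative settings, so nothing is read from these counts. The ratio of Hsd11b1 between the libraries in Dpp4-type cells, never past 3-fold, ranged from -0.87 to 0.58 on the log2 scale.

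With 1 library per genotype, intervals cover counting error only, and variation between mice was not measured. Levels of Akr1c14 outside Dpp4-type cells rested on 6 to 35 UMIs per class and library, which limits any ratio there. Class limits were set on measured UMIs, and the libraries differed in their class genes.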
